A study of Mus musculus with 11 samples.

Results

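The G2/M and mitosis genes are 39 protein-coding genes whose transcripts build up before and during cell division. They were taken by symbol from the deposited table of 32868 named genes, all 39 were found, and all 39 were among the 9932 genes with enough counts to be tested. They were measured by bulk RNA-seq in 11 libraries of primary fibroblasts isolated from neonatal mouse lung and sorted by flow cytometry. The libraries were 6 of wild-type cells (WT) and 5 of PAD2KO cells, which by their name lack peptidylarginine deiminase 2, an enzyme that converts arginine in proteins to citrulline. The labels place 6 libraries in batch 1 (WT 1, WT 3, WT 4 and PAD2KO 1 to PAD2KO 3) and 5 in batch 2 (WT 5 to WT 7, PAD2KO 6, PAD2KO 7). No treatment is named for any library. The strain, the exact age, the allele, the sorting gate, the passage and what a batch was (an isolation, a culture or a sequencing run) are not given in the sources used here. Whether the libraries of a group stem from different animals is not stated either, and every p-value therefore rests on the spread among libraries, which may be technical.

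Genes of this set are largely silent in resting cells and are switched on late in the cell cycle by the transcription factors FOXM1 and B-MYB together with the MuvB complex, which binds a promoter element called the cell cycle homology region. The factor NF-Y binds CCAAT boxes in many of the same promoters. CDK1 with cyclin A or B drives entry into mitosis, and the other members assemble the spindle, attach it to kinetochores, monitor that attachment and divide the cell. Their summed transcript level is commonly read as a sign of how many cells are dividing. In bulk RNA, more dividing cells and more transcript in each dividing cell cannot be told apart.

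Named genes held 962633 (WT 7) to 1421243 (PAD2KO 2) counts in a library, so that 3 counts, the limit that 0 counts allow, correspond to 2.11 to 3.12 CPM, the counts scaled to a common library total. Each member had 14 to 354 counts in every library. Fibroblast markers such as collagens summed to 10032 to 22839 CPM, while 10 endothelial markers summed to 13.1 to 29.1 CPM and 12 epithelial markers to 17.4 to 47.6 CPM, with 4 epithelial markers at 0 in every library. Padi2, the gene for the enzyme, was at 0 to 2 counts in WT libraries and at 0 to 4 in PAD2KO libraries. These are too few to check the genotype labels or to see a loss of its transcript.

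Per transcript length, the most abundant members were Ube2c, the ubiquitin-conjugating enzyme of the anaphase-promoting complex, with a median of 217 TPM, a unit scaled for transcript length and library total, over the 11 libraries, and Cdk1, with 198 TPM. Cyclin B1 (Ccnb1) followed with 134 TPM and the anaphase activator Cdc20 with 119 TPM. The lowest were the long kinetochore genes Cenpe, a motor, with 7.34 TPM and Cenpf with 8.12 TPM, and the checkpoint kinase Ttk with 9.80 TPM. Mki67, the gene of the proliferation antigen Ki-67, had a median of 13.0 TPM. All 39 members were therefore detected in every library.

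Promoter sequences from RefSeq on GRCm38.p6, from 250 bases before to 50 bases after the start of transcription, were at hand for 33 of the 39 members. The other 6 were Ccna2, Dlgap5, Tpx2, Cdc25c, Kif20a and Aurkb. The letters TTTGAA or TTCGAA of the cell cycle homology region, searched on both strands, were present in 26 of the 33 members (78.8%), against 21.7% of all 27025 genes with a promoter and 16.5% of the 7847 tested genes with one. In 24 of the 26 the nearest match lay within 50 bases of the start, as it did in 1430 of 5254 genes with a match overall (27.2%, at each gene's first listed start). CCAAT on either strand was present in 25 of the 33 (75.8%), against 41.1% of all genes, and both motifs in 22 (66.7%), against 8.61%. Matches of different motifs were counted separately, so they may overlap. In the part before the start alone, the homology region letters were in 12 members (36.4%), against 19.6% of all genes. A match of letters is not a tested binding site.

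Stretches of 180 bases, from 150 before to 30 after the start, follow for the 3 members with the smallest p between genotypes in batch 2 (Cks2, Anln and Nuf2), for the only members with a lower PAD2KO value there (Knl1 and Ttk) and for Cdk1, whose promoter holds both motifs more than once. Capitals mark TTTGAA or TTCGAA and CCAAT on either strand, and positions are those of a motif's first base, with 0 the first base from the start onward. They lie at chr13:51645082-51645261 on the plus strand (Cks2), chr9:22389177-22389356 on the minus strand (Anln), chr1:169531435-169531614 on the minus strand (Nuf2), chr2:119046969-119047148 on the plus strand (Knl1), chr9:83834539-83834718 on the plus strand (Ttk) and chr10:69352883-69353062 on the minus strand (Cdk1). The submitters' notes name GRCm39, so these coordinates are not those of the deposited data.
Cks2: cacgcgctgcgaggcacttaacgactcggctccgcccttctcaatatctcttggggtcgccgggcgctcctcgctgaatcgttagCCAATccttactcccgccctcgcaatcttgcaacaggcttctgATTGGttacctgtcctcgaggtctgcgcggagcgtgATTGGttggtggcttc
Anln: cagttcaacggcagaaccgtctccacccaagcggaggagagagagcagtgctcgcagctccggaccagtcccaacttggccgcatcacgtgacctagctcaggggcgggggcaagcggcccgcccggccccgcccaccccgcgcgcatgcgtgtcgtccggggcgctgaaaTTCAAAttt
Nuf2: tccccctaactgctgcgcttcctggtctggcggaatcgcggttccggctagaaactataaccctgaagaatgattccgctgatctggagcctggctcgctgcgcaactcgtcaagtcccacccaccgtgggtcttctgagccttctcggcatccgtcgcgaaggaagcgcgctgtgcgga
Knl1: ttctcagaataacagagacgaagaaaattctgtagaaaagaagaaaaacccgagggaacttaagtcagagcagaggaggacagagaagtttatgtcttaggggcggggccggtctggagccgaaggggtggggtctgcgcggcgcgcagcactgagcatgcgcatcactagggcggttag
Ttk: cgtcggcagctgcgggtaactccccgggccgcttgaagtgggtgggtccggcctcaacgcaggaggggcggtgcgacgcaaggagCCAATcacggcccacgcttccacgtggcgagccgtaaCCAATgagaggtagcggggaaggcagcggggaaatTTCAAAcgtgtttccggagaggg
Cdk1: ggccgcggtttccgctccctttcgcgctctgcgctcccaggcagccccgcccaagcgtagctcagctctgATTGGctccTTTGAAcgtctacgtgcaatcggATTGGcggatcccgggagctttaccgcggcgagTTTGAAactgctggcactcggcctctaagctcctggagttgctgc
Cks2 held 3 CCAAT boxes, at -65, -22 and 14, and no homology region letters. Anln held 1 match to the homology region, at 21, and no CCAAT. Nuf2 held neither, and Knl1 neither in the stretch shown, although its longer window has the homology region letters at 31. Ttk held the homology region letters at 7 and CCAAT at -65 and -28, and Cdk1 held the former at -71 and -15 and the latter at -80 and -48.

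**Figure D1:**
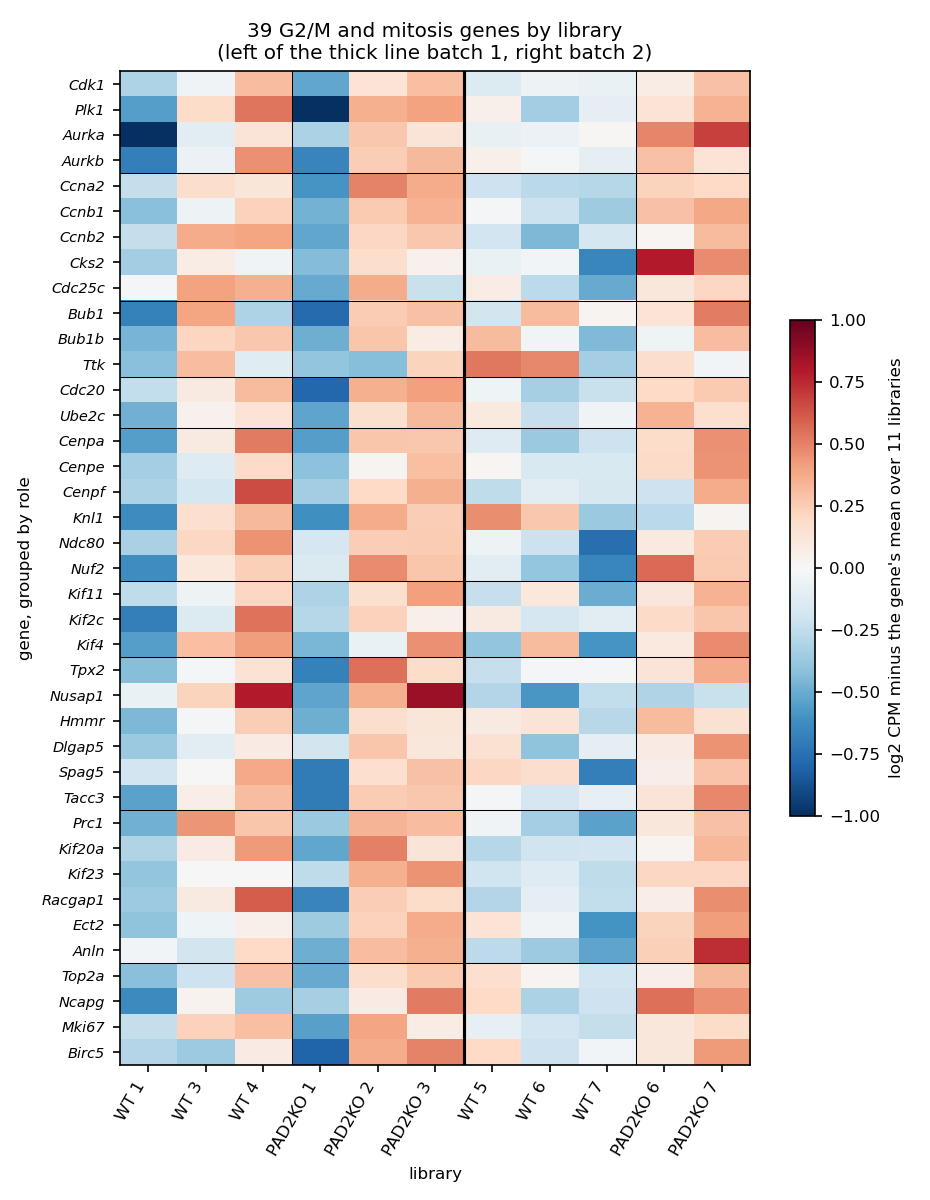
Level of each of the 39 members (vertical, grouped by role) in each of the 11 libraries (horizontal, grouped by genotype and batch), as log2 CPM after subtracting the member's mean over all libraries (red above, blue below, with the colour scale ending at 1 in either direction). WT 1 and PAD2KO 1 are low for nearly every member in batch 1, and in batch 2 both PAD2KO libraries are above the WT libraries for 28 of the 39.

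Do mitotic transcripts differ between the libraries labelled PAD2KO and WT? In batch 2 the members were mostly higher in PAD2KO cells, but only 1 passed the test. The summed level of the 39 members was 3034 CPM in WT 5, 2787 in WT 6 and 2589.8 in WT 7, and 3532 in PAD2KO 6 and 3959 in PAD2KO 7. Both PAD2KO libraries lay above all 3 WT libraries. The means were 2804 ± 223 CPM (SD, n = 3) and 3746 ± 301 CPM (SD, n = 2), a ratio of 1.34. The median log2 difference over the 39 members was 0.41, with a range of -0.33 to 0.89 and 37 members above 0. The median over all 9932 genes was -0.0068, a value that the scaling of the libraries holds near 0. For 28 of the 39 members (71.8%) both PAD2KO libraries exceeded every WT library, and for none did both fall below, beside 15.7% of all tested genes with both above. The members whose libraries overlapped were the checkpoint kinases Bub1, Bub1b and Ttk, the kinetochore proteins Cenpf and Knl1, the motor Kif4, the spindle proteins Nusap1, Dlgap5 and Spag5, and Top2a and Birc5. All members share the same 5 libraries, so they are not separate evidence of a difference.

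Cks2, a small subunit that binds CDK1 and helps it select phosphorylated substrates, rose in PAD2KO cells of batch 2. It was at 37.0 CPM in WT 5, 37.8 in WT 6 and 23.9 in WT 7, and at 68.6 in PAD2KO 6 and 54.1 in PAD2KO 7. Both PAD2KO libraries lay above all WT libraries, and WT 7 lay lowest. The log2 difference was 0.86 (SE 0.23, adjusted p = 0.0299). It was the only one of the 39 members called higher, beside 139 of 9932 genes (1.40%). At an unadjusted p under 0.05 there were 6 members (15.4%), beside 14.4% of all genes in either direction. All 6 were higher in PAD2KO cells, while all genes at that p split into 655 higher and 778 lower. Over 20 alternative settings the adjusted p of Cks2 lay between 0.00430 and 0.239, with a log2 difference of 0.69 to 1.02. Without WT 7 the adjusted p was 0.118, without PAD2KO 6 it was 0.239 and without PAD2KO 7 it was 0.112. With offsets from the deposited gene lengths it was 0.178. Its estimated counts were not whole, within 0.01 counts, in 7 of the 11 libraries.

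Anln and Nuf2 came next. Anillin (Anln), the scaffold of the contractile ring, was at 113 CPM in WT 5, 104 in WT 6 and 92.5 in WT 7, and at 161 in PAD2KO 6 and 225 in PAD2KO 7. The groups did not overlap, and PAD2KO 7 stood highest of all 11 libraries. The log2 difference was 0.89 (SE 0.22) and the adjusted p, 0.0501, missed the threshold of 0.05. It passed in 7 of 20 alternative settings, where it lay between 6.24e-08 and 0.493. With DESeq2, Anln was the member called (adjusted p = 0.00525) and Cks2 was not (adjusted p = 0.0696). Nuf2, part of the NDC80 complex that ties kinetochores to microtubules, was at 43.5, 35.5 and 29.1 CPM in WT 5, WT 6 and WT 7 and at 71.0 and 56.4 in PAD2KO 6 and PAD2KO 7. These groups did not overlap either, and the log2 difference was 0.79 (SE 0.24, adjusted p = 0.0710). Nuf2 passed in 6 of 20 alternatives, with adjusted p from 0.00625 to 0.358.

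Among the kinases of mitotic entry, all 4 had a log2 difference above 0 in batch 2, with a median of 0.33, and none passed the test. Aurora kinase A (Aurka), which matures the spindle poles, was at 48.6 CPM in WT 5, 48.6 in WT 6 and 50.9 in WT 7, and at 72.7 and 82.7 in PAD2KO 6 and PAD2KO 7. Its WT libraries were close together and both PAD2KO libraries were higher, with a log2 difference of 0.65 (SE 0.24, adjusted p = 0.181). Cdk1 was at 120.4, 126 and 125 CPM in the WT libraries and at 139.7 and 162 in the PAD2KO libraries. The groups did not overlap, and the log2 difference was 0.28 (SE 0.20, adjusted p = 0.600). Plk1, the polo-like kinase of spindle assembly, was at 89.9, 67.1 and 80.0 CPM in WT cells and at 96.1 and 109.8 in PAD2KO cells. Its difference of 0.38 was smaller than its SE of 0.44 (adjusted p = 0.796).

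The cyclins, Cks2 and the CDK1-activating phosphatase Cdc25c formed a group of 5 with a median of 0.47, all above 0. Ccnb1 was at 184, 159 and 143 CPM in WT 5, WT 6 and WT 7 and at 228 and 242 in PAD2KO 6 and PAD2KO 7. All WT libraries lay below both PAD2KO libraries, with a log2 difference of 0.52 (SE 0.23, adjusted p = 0.315). The 6 genes of the central spindle and of cytokinesis, among them the kinesins Kif20a and Kif23 and the RhoA activator Ect2, had a median of 0.47 and a range of 0.41 to 0.89. The 3 spindle motors had a median of 0.42, and the 2 cofactors of the anaphase-promoting complex a median of 0.37. Of the 6 spindle assembly and microtubule-binding genes all were above 0, with a median of 0.29.

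The 4 genes of chromosome structure had a median log2 difference of 0.30 in batch 2, all above 0, and the 3 checkpoint kinases one of 0.14. Mki67 was at 90.7, 83.3 and 80.0 CPM in WT 5, WT 6 and WT 7 and at 104 and 108 in PAD2KO 6 and PAD2KO 7. The PAD2KO libraries were higher without overlap, with a log2 difference of 0.32 (SE 0.21, adjusted p = 0.561). Top2a, the topoisomerase that untangles sister chromatids, was at 242, 217 and 186 CPM in WT cells and 226 and 268 in PAD2KO cells, which overlapped (log2 difference 0.19, SE 0.25, adjusted p = 0.821). The condensin subunit Ncapg was at 56.6, 38.5 and 41.6 CPM in WT cells and 72.7 and 67.3 in PAD2KO cells, without overlap, and its log2 difference of 0.60 (SE 0.23) had an adjusted p of 0.188.

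The only members below 0 in batch 2 were Knl1, the kinetochore scaffold for checkpoint proteins, and Ttk, the kinase that starts checkpoint signalling. Knl1 was at 33.4, 28.5 and 17.7 CPM in WT 5, WT 6 and WT 7 and at 19.4 and 24.0 in PAD2KO 6 and PAD2KO 7 (log2 difference -0.33, SE 0.33, adjusted p = 0.733). Ttk was at 28.3, 27.0 and 14.5 CPM in WT cells and at 21.8 and 18.6 in PAD2KO cells (log2 difference -0.25, SE 0.32, adjusted p = 0.805). In both genes WT 7 was lowest and the other WT libraries were highest, so the groups overlapped.

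**Figure D2:**
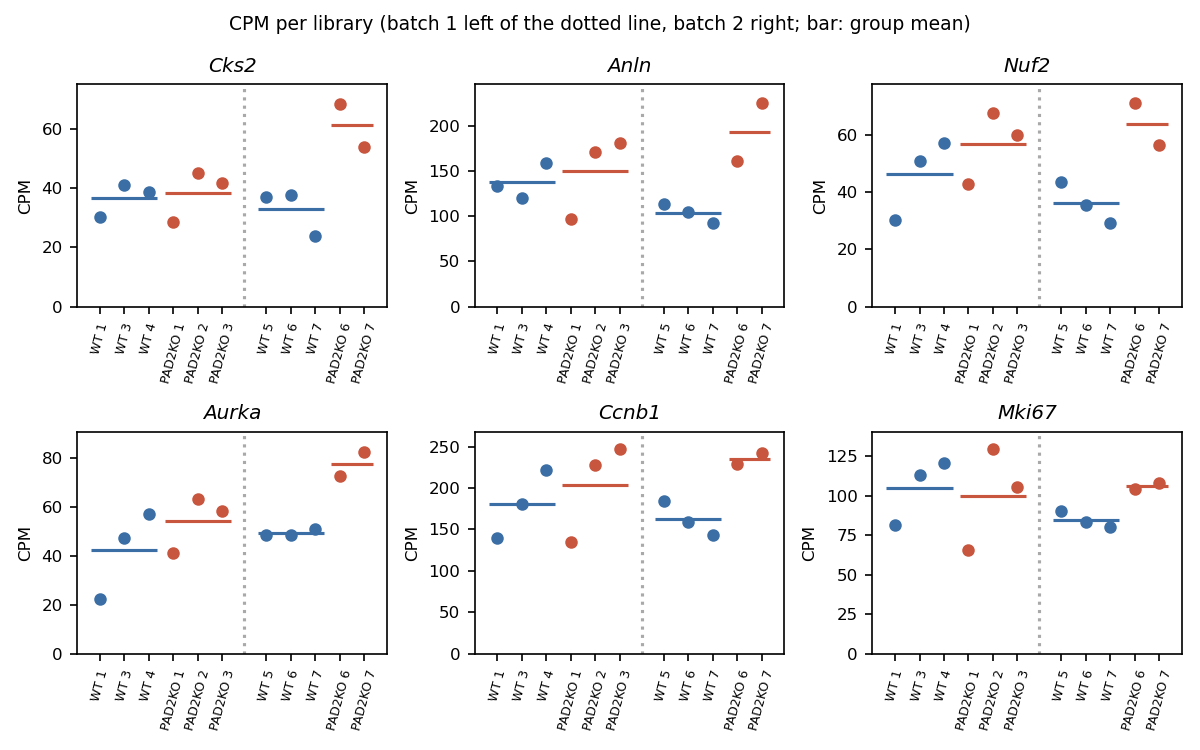
CPM of Cks2, Anln, Nuf2, Aurka, Ccnb1 and Mki67 in each library (points, WT blue and PAD2KO red), with bars at the mean of each genotype in each batch, batch 1 to the left of the dotted line and batch 2 to the right. In batch 2 both PAD2KO points lie above the 3 WT points in all 6 panels, while in batch 1 the groups overlap.

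Some other lists also separated by genotype in batch 2. The mitochondrially encoded mRNAs and the leukocyte markers overlapped between genotypes. Markers of smooth muscle and pericytes summed to 1662 to 2071 CPM in WT 5, WT 6 and WT 7. In PAD2KO 6 and PAD2KO 7 they summed to 4193 to 5279 CPM. Of the 8 tested, 3 were called higher in PAD2KO cells and 0 lower, beside 1.40% and 1.71% of all genes. The list did not move as a whole, with 5 above 0 and 3 below, down to a log2 difference of -1.27. The 13 mitochondrially encoded mRNAs summed to 12089 to 19106 CPM in WT cells and 18358 to 21436 CPM in PAD2KO cells, with the lowest value in WT 7, and all 13 had a log2 difference above 0, none of them called. Dissociation and stress genes summed to 2371 to 2484 CPM in WT cells and 2657 to 2735 CPM in PAD2KO cells, with 2 of 9 tested called higher. Fibroblast markers summed to 11492 to 12196 CPM in WT cells and 10032 to 10871 CPM in PAD2KO cells, with 2 of 9 called lower. Leukocyte markers summed to 263 CPM in WT 7 and to 22.5 to 83.1 CPM in the other 10 libraries. The part of these in the difference of the members was not tested.

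In batch 1 the members did not separate by genotype. Their summed level was 2393 CPM in WT 1, 3269.9 in WT 3 and 3912 in WT 4, and 2179.75 in PAD2KO 1, 3906 in PAD2KO 2 and 3987 in PAD2KO 3. Each genotype held 1 low library, the one numbered 1, and the groups overlapped. The means were 3192 ± 762 CPM and 3358 ± 1021 CPM (SD, n = 3 each), a ratio of 1.05. The median log2 difference over the members was 0.03, with a range of -0.34 to 0.43 and 25 members above 0, beside a median of -0.0011 over all genes. No member was called by edgeR or by DESeq2, where edgeR called 13 of all 9932 genes (0.131%), and no member had an unadjusted p under 0.05. No member had all libraries of 1 genotype above those of the other, beside 11.4% of all genes. The sign of the members' median rested on single libraries, since it was -0.15 without WT 1, -0.05 without PAD2KO 2 and -0.06 without PAD2KO 3, and 0.22 without WT 4 and 0.27 without PAD2KO 1.

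For every one of the 39 members the lowest library of batch 1 was PAD2KO 1 (25 members) or WT 1 (14 members). WT 1 was among the 2 lowest of the 6 libraries for 36 members and PAD2KO 1 for 37. WT 1 and PAD2KO 1 both lay below the mean of their own genotype and batch for all 39. The median shortfall was 0.37 in WT 1 and 0.49 in PAD2KO 1 on the log2 scale. The deviation over all genes had a median near 0, which the scaling of the libraries largely sets. The highest library varied, with 13 members highest in PAD2KO 3, 12 in WT 4, 10 in PAD2KO 2 and 4 in WT 3. Cell cycle inhibitors and targets of p53 summed to 1919.7 CPM in WT 1 against 1707 in WT 3 and 1627 in WT 4, and to 2127 CPM in PAD2KO 1 against 1784 and 1882 in the other PAD2KO libraries. Both low libraries were thus the highest of their group for that list. They were also the highest for mitochondrially encoded mRNAs (21868 CPM in WT 1, 24346 in PAD2KO 1) and leukocyte markers (78.6 and 64.9 CPM). For genes of the G1/S transition and DNA replication they were the lowest of their group (1959 and 1883 CPM). The part of these lists in the members' level was not tested.

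The members with the smallest p in batch 1 illustrate this spread. Ncapg was at 31.1, 50.2 and 38.7 CPM in WT 1, WT 3 and WT 4 and at 38.8, 52.8 and 73.5 in PAD2KO 1, PAD2KO 2 and PAD2KO 3 (log2 difference 0.43, SE 0.21, adjusted p = 0.902). Kif23 was at 33.4, 44.5 and 45.1 CPM in WT cells and 37.2, 58.4 and 63.7 in PAD2KO cells (0.35, SE 0.19, adjusted p = 0.904). In both genes PAD2KO 2 and PAD2KO 3 lay above every WT library and PAD2KO 1 did not. Aurka was at 22.6, 47.4 and 57.2 CPM in WT cells and 41.2, 63.3 and 58.4 in PAD2KO cells, and Cdc25c at 27.2, 36.8 and 36.2 and at 19.0, 36.6 and 24.3. Their log2 differences were 0.34 (SE 0.23, adjusted p = 0.936) and -0.34 (SE 0.24, adjusted p = 0.938). Of the members named for batch 2, Cks2 was at 30.3, 41.0 and 38.7 CPM in WT cells of batch 1 and 28.5, 45.0 and 41.7 in PAD2KO cells, which covered nearly the same range (log2 difference 0.05).

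The widely used proliferation genes gave no separation in batch 1 either. Mki67 was at 81.7, 113 and 121 CPM in WT 1, WT 3 and WT 4 and at 65.7, 129 and 105 in PAD2KO 1, PAD2KO 2 and PAD2KO 3. Top2a was at 162, 187 and 269 CPM in WT cells and 152, 248 and 268 in PAD2KO cells. Each gene was lowest in PAD2KO 1 and next lowest in WT 1, and the log2 differences were -0.08 and 0.10. Ccnb1 was at 139, 180.3 and 222 CPM and 135, 228 and 247 CPM in the same order, Cdk1 at 107, 129 and 167 and at 92.7, 148 and 171, and Plk1 at 59.1, 99.0 and 129 and at 42.8, 114 and 119.7. All 3 followed the same order of low libraries.

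**Figure D3:**
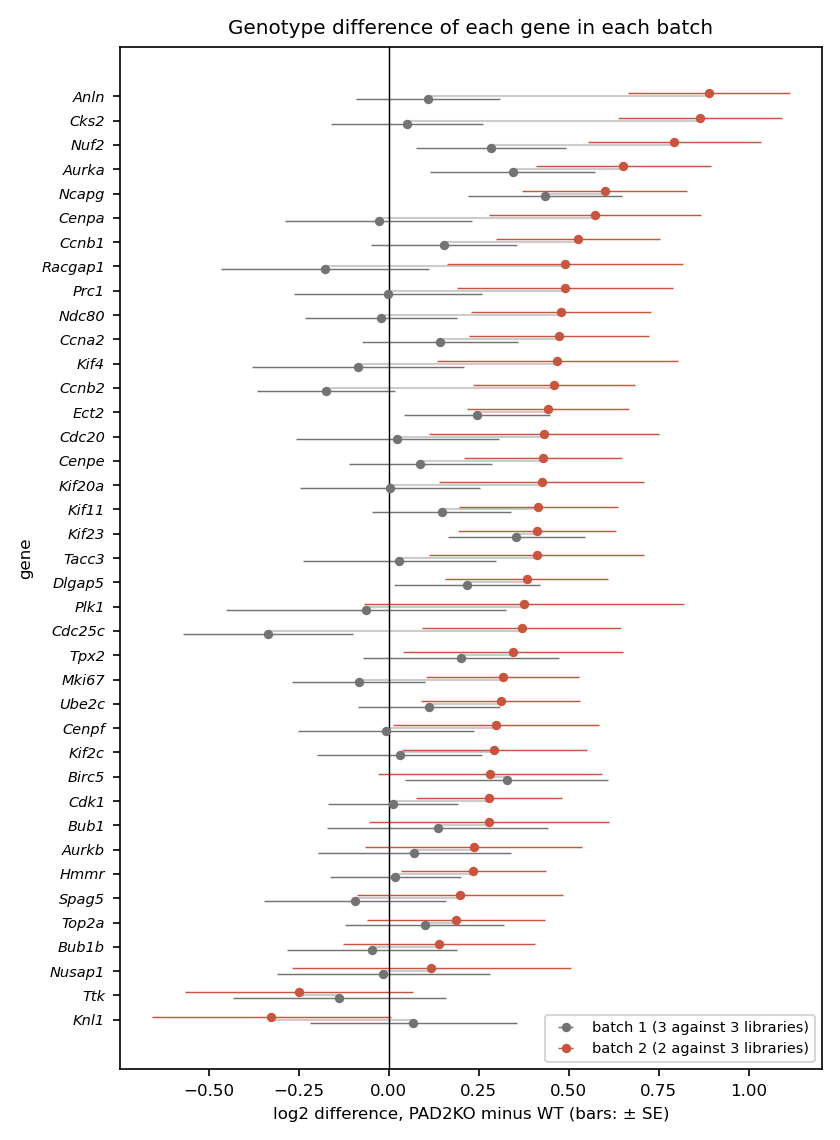
Log2 difference of PAD2KO against WT (horizontal, error bars 1 SE) for each of the 39 members (vertical, sorted by the batch 2 value), in batch 1 (grey) and batch 2 (red). The red points lie above 0 for 37 members, with a median of 0.41, and the grey points scatter around a median of 0.03.

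Whether the genotype difference itself differed between batches was tested by the interaction. The median interaction over the members was 0.30 and 36 of 39 were above 0, but no member was called, beside 161 of 9932 genes (1.62%), and DESeq2 called none. An unadjusted p under 0.05 was seen for 3 members (7.69%), beside 11.6% of all genes in either direction. All 3 were above 0, while all genes at that p split into 540 above 0 and 610 below. The median was 0.12 without PAD2KO 1 (28 above 0), 0.19 without WT 4 and 0.46 without WT 1. The smallest p values belonged to Cks2 (log2 0.81, SE 0.31, adjusted p = 0.245), Anln (0.78, SE 0.30, adjusted p = 0.305), the B-type cyclin Ccnb2 (0.63, SE 0.30, adjusted p = 0.411) and Cdc25c (0.70, SE 0.36, adjusted p = 0.464). A difference between batches in the response of the members was therefore not shown. With both batches in a model adjusted for batch, the median difference was 0.20, 36 of 39 members were above 0, and edgeR and DESeq2 called none of them, beside 19 genes (0.191%). The smallest p values there belonged to Ncapg (0.51, SE 0.16, adjusted p = 0.363), Nuf2 (0.50, SE 0.17, adjusted p = 0.406), Aurka (0.49, SE 0.17, adjusted p = 0.434) and Kif23 (0.38, SE 0.14, adjusted p = 0.492). At an unadjusted p under 0.05 there were 7 members (17.9%), all higher, beside 7.64% of all genes in either direction. The members' median over both batches lay between 0.12 (without WT 1 or PAD2KO 7) and 0.33 (without PAD2KO 1).

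Between batches, few members changed. In WT cells their summed CPM in batch 2 was 0.878 times that of batch 1, and in PAD2KO cells 1.12 times. Among WT libraries the median log2 difference of batch 2 against batch 1 was -0.10 (12 members above 0), and no member was called by edgeR or DESeq2, beside 2212 of 9932 genes (22.3%) in either direction, of which 1161 (11.7%) were higher in batch 2. An unadjusted p under 0.05 was seen for 2 members (5.13%), beside 33.1% of all genes, and 2, Nusap1 and Anln, had all batch 2 WT libraries below all of batch 1, beside 19.2% of all genes. Among PAD2KO libraries the median was 0.20 (36 above 0), and 1 member, Cks2, was called higher, beside 946 genes (9.52%). Aurka and Cks2 had both batch 2 PAD2KO libraries above all 3 of batch 1, beside 20.3% of all genes. Both medians rested on single libraries. The WT median was 0.07 without WT 4 and -0.26 without WT 1, and the PAD2KO median was -0.01 without PAD2KO 1 (19 above 0), 0.07 without PAD2KO 7 (27 above 0) and 0.34 without PAD2KO 3. With WT 1 and PAD2KO 1 both left out, a setting chosen after seeing the data, 11 members were called lower in WT cells of batch 2, among them Mki67, Plk1 and Cdc20, beside 890 of all genes (8.89%).

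Cks2 rose from 28.5, 45.0 and 41.7 CPM in PAD2KO cells of batch 1 to 68.6 and 54.1 in batch 2, without overlap (log2 difference 0.70, SE 0.22, adjusted p = 0.0249). The call was lost without PAD2KO 1 (adjusted p = 0.105), without PAD2KO 6 (adjusted p = 0.252) and with DESeq2 (adjusted p = 0.0770), and over 19 alternatives the adjusted p lay between 0.0138 and 0.252. In WT cells it was at 30.3, 41.0 and 38.7 CPM in batch 1 and 37.0, 37.8 and 23.9 in batch 2, overlapping. The members with the smallest p in WT cells were all lower in batch 2 without passing. Ccnb2 was at 63.0, 96.2 and 99.8 CPM in batch 1 and 64.5, 53.2 and 64.4 in batch 2 (log2 difference -0.49, SE 0.20, adjusted p = 0.0914). Nusap1, which bundles spindle microtubules, was at 42.0, 51.6 and 78.9 CPM and at 35.5, 28.5 and 36.4 (-0.76, SE 0.33, adjusted p = 0.123). Only in Nusap1 of these did the batches not overlap, and its PAD2KO libraries of batch 2, at 35.5 and 37.1 CPM, lay in the range of 30.1 to 84.1 of batch 1. Ndc80, the partner of Nuf2, was at 30.3, 44.5 and 54.0 CPM and at 37.0, 32.4 and 21.8 (-0.44, SE 0.22, adjusted p = 0.168), and Cdc25c at 27.2, 36.8 and 36.2 and at 29.0, 22.4 and 18.7 (-0.47, SE 0.24, adjusted p = 0.180). Other cell type lists also differed between batches. Fibroblast markers summed to 16503 to 22839 CPM in batch 1 and 10032 to 12196 in batch 2. In WT cells smooth muscle and pericyte markers went from 6856 to 7476 CPM to 1662 to 2071 CPM, with 5 of 8 called lower. Mesothelial markers went from 205 to 353 CPM to 50.9 to 90.7 CPM there, with 3 of 4 called lower. Of all genes, 10.6% were called lower in WT cells of batch 2. The part of these markers in the members' values was not tested.

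Other regulators and machinery of mitosis, 90 genes outside the 39 of which 86 were tested, are the nearest neighbours of the members in function. In batch 2 their median log2 difference between genotypes was 0.23, with 68 above 0, and 1 was called higher (1.16%, beside 1.40% of all genes). Cenpn, which binds the centromeric nucleosome, rose from a mean of 11.7 CPM in WT cells to 24.9 in PAD2KO cells (log2 difference 1.09, SE 0.31, adjusted p = 0.0470), at 13 to 32 counts a library. The next by p were Bora (0.97, adjusted p = 0.0927), Smc4 (0.54, adjusted p = 0.105) and Cdc16 (0.66, adjusted p = 0.109). DESeq2 called none of the 86 there. The summed CPM of the 90 genes in batch 2 was 4989 to 5887 in WT and 5868 to 6257 in PAD2KO cells, which overlapped. In batch 1 the median was 0.06 and none was called by either tool, with 2 at an unadjusted p under 0.05. Between batches, 5 were higher and 2 lower in WT cells of batch 2, and 9 higher and 1 lower in PAD2KO cells. The shares called higher, 5.81% and 10.5%, were below or near those of all genes (11.7% and 9.52%). The histone variant H2az1 (1.29 and 1.12) and the kinetochore gene Zwint (0.87 and 0.49) were called higher in both genotypes, and Cks1b, the paralogue of Cks2, was called higher in PAD2KO cells (0.58, adjusted p = 0.00350).

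Genes of the G1/S transition and of DNA replication act before the members in the cell cycle. Of 50 such genes 47 were tested, and between genotypes their median log2 difference was 0.06 in batch 1 and 0.06 in batch 2. None was called by edgeR or DESeq2 in either batch, with 1 and 2 at an unadjusted p under 0.05. The summed CPM of the 50 genes in batch 2 was 2955 to 3246 in WT and 3346 to 3401 in PAD2KO cells. These sums did not overlap, as with the members. Between batches, 15 were called higher and 0 lower in WT cells of batch 2 (median 0.44), and 14 higher and 1 lower in PAD2KO cells (median 0.49). The shares called higher were 31.9% and 29.8%, beside 11.7% and 9.52% of all genes. Dut, which removes dUTP, rose by 1.43 in WT and 1.14 in PAD2KO cells, and the ribonucleotide reductase subunit Rrm2 by 1.08 and 1.07. Without WT 1 and PAD2KO 1, 11 and 9 were still called higher, beside 9.9% and 7.98% of all genes. The summed CPM of the 50 genes over that of the 39 members was 0.819, 0.715 and 0.667 in WT 1, WT 3 and WT 4 and 0.864, 0.722 and 0.662 in PAD2KO 1, PAD2KO 2 and PAD2KO 3. In batch 2 it was 1.07, 1.16 and 1.14 in WT 5, WT 6 and WT 7 and 0.947 and 0.859 in PAD2KO 6 and PAD2KO 7. It was higher in every WT library of batch 2 than in any library of batch 1, while PAD2KO 7 lay just below PAD2KO 1.

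**Figure D4:**
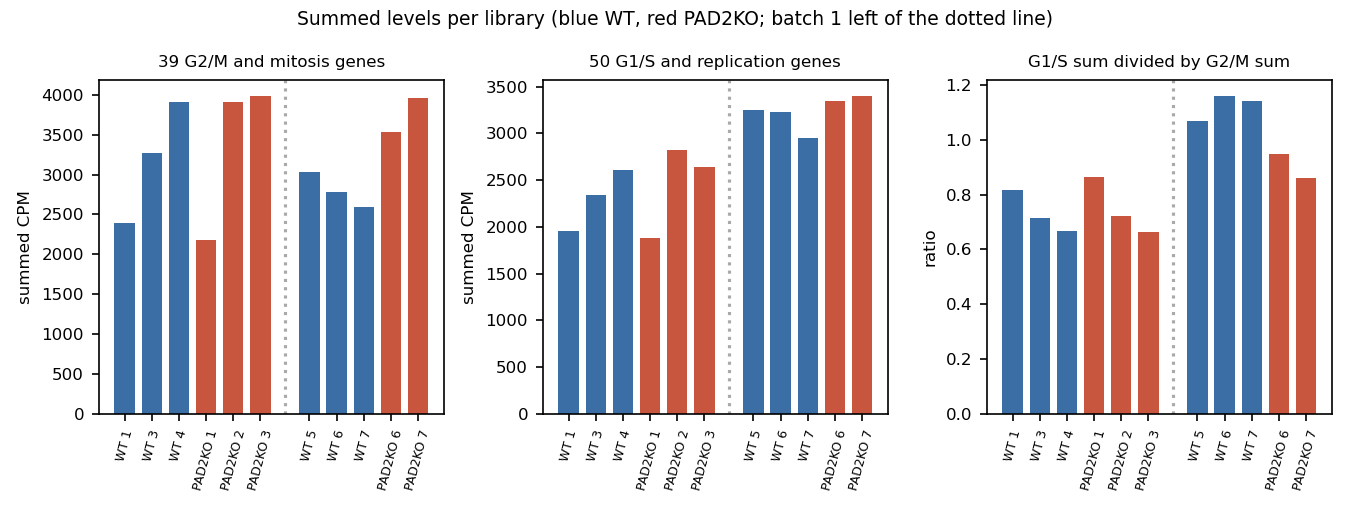
Summed CPM of the 39 members (left), summed CPM of the 50 G1/S and replication genes (middle) and the ratio of the second to the first (right) in each library, WT in blue and PAD2KO in red. The members are lowest in PAD2KO 1 and WT 1 and separate by genotype only in batch 2, where the ratio is 1.07 to 1.16 in WT and 0.859 to 0.947 in PAD2KO libraries.

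Of the genes that act upstream, in G1, 8 of 9 were tested and Cdk6, a kinase of early G1, was called higher in PAD2KO cells of batch 2. Its mean was 66.7 CPM in WT and 115 CPM in PAD2KO cells (log2 difference 0.78, SE 0.15, adjusted p = 0.00291), and in batch 1 it was 120.5 and 97.4 CPM. The difference between batches in its genotype effect passed the test (log2 1.10, adjusted p = 0.00235). The 9 genes summed to 1503 to 1514 CPM in WT and 1606 to 1719 CPM in PAD2KO cells of batch 2, without overlap. Cyclin D1 (Ccnd1) was called higher in batch 2 in WT cells (0.88) and PAD2KO cells (1.76), as was Myc (0.82 and 0.96). Of 20 tested cell cycle inhibitors and p53 targets none was called between genotypes in either batch by edgeR or DESeq2, with 1 at an unadjusted p under 0.05 in each. Their summed CPM in batch 2 overlapped, at 2104 to 2389 in WT and 2049 to 2347 in PAD2KO cells. Between batches 7 were called higher and 3 lower in WT cells of batch 2, and 6 and 4 in PAD2KO cells. In WT cells these were 35% and 15% of those tested, beside 11.7% and 10.6% of all genes. In PAD2KO cells they were 30% and 20%, beside 9.52% and 9.13% of all genes. Mdm2, the ubiquitin ligase of p53, was higher by 1.03 and 0.93 and the apoptosis gene Bax by 0.67 and 0.56, while the stress gene Gadd45g fell by 1.38 and 1.15.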

How the data were processed

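Gene-level values of 11 bulk RNA-seq libraries were used. Per the labels' protocols, RNA was purified on columns and made into libraries with a SMARTer mRNA kit (SmartSeq2). The submitters' processing notes name GRCm39, Salmon 1.3.2, fastp and DESeq2 1.46.0. Settings, annotation and the use of strand are not given in the sources used here. Per the file headers, the authors deposited estimated counts, TPM values and effective gene lengths (bases, an alternative only). Reads carry no molecular identifiers, so limits cover counting error only.

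Of 56065 table entries, 23133 name no gene (3.80% to 6.40% of counts) and were left out. The estimated counts were summed by symbol and rounded to whole numbers. CPM used the totals of named genes. The test was edgeR 4.0.16 under R 4.3.3 (TMM, filterByExpr on genotype, robust quasi-likelihood fit, common biological coefficient of variation 0.115) in 4 groups of genotype and batch, with Benjamini-Hochberg adjustment over all 9932 genes at 0.05. The contrasts were genotype within each batch, batch within each genotype, and their interaction; genotype over both batches had batch as a term. Alternatives were DESeq2 1.42.0, other scaling and filters, length offsets, a replicate block, subsets of libraries and each library left out. Promoter letters were counted with Python 3.11.15.

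Named members are those called in a comparison, otherwise the 4 with the smallest p, plus Mki67, Top2a, Cdk1, Ccnb1, Plk1 and Aurka, and up to 4 genes of each other list by p; Knl1, Ttk and other members named with a role, and the genes picked from other lists for printing, were chosen after their values were seen. The members and lists were chosen with earlier results of these data known, and no list was tested as a set.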

Additional observations from a re-analysis of the deposited data

Results flagged for a closer look

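Within each genotype, 32 groups of library values (the summed level and the named members, both batches together) were checked for a library far from the others, where chance gives about 1 in 20 groups. In 4 a library stood apart by the gap to its neighbour relative to the range. PAD2KO 1 stood low in the summed level of the 39 members at 2179.75 CPM, where the other PAD2KO libraries were at 3532 to 3987 CPM. PAD2KO 1 was also low for Ccnb1, at 135 CPM against 228 to 247 CPM in the other PAD2KO libraries. WT 1 was low for Aurka, at 22.6 CPM against 47.4 to 57.2 CPM in the other WT libraries. WT 4 was high for Cdk1, at 167 CPM against 107 to 129 CPM. All of these libraries belong to batch 1, and the groups span both batches.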

How the results depend on the processing

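Against 1 in batch 2 between genotypes, 7 members were called higher with no filter (1.25% of all genes), 4 with the replicate block (Ccnb1, Cks2, Nuf2 and Prc1; 1.12%), 4 with the libraries of the comparison alone (1.03%), 7 without both libraries numbered 1 (1.63%) and 0 with length offsets (0.383%). Against 0 in WT cells between batches, 3 were called lower with no filter (5.56% of all genes), 3 with the libraries of the comparison alone (10.7%) and 11 without both libraries numbered 1 (8.89%). Against 1 in PAD2KO cells between batches, 3 were called higher with no filter (5.14%) and 0 with length offsets (4.59%) or DESeq2 (6.52%). With no filter the interaction called 1 higher (0.719%) and the comparison over both batches 3 (0.248%). With 1 library left out, the members called are given beside the share of all genes called in either direction. There were 0 in batch 1 (0.0496% to 0.204%) and 0 to 4 in batch 2 (0.646% to 3.68%). Between batches there were 0 to 3 in WT (17.4% to 22.8%) and 0 to 2 in PAD2KO cells (10.7% to 19.8%). The interaction gave 0 (0.328% to 2.31%) and the comparison over both batches 0 to 1 (0.0816% to 0.264%). The members' median in batch 2 stayed between 0.29 and 0.48 over 20 alternatives. The members without overlap there numbered 27 (TPM, beside 15.1% of all genes) to 36 (without PAD2KO 6, beside 28.7%). Leaving out a library cannot lower such a count, for the members or for all genes. In batch 1 the median changed sign between -0.15 and 0.27. The summed ratio with 1 library left out was 1.26 to 1.41 in batch 2 and 0.935 to 1.24 in batch 1, and between batches 0.781 to 0.990 in WT and 0.949 to 1.23 in PAD2KO cells. Promoters with the homology region letters fell from 78.8% to 36.4% of members when only bases before the start were read. The cause of these changes was not tested.

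Libraries numbered 1, 3, 6 and 7 occur in both genotypes. The correlation of same-numbered libraries' deviations from their group mean over all genes was 0.0487, 0.0104, 0.0297 and 0.00152, so the numbers were not treated as pairs. Only numbers 6 and 7, both of batch 2, matched their own number best. The 2 PAD2KO libraries there deviate in exactly opposite ways, so a best match rests on a sign alone and cannot decide about pairs. No paired analysis was possible between batches because no number occurs in both.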
